A study of Homo sapiens with 3 samples.

Results

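The genes described here encode chaperones and folding enzymes of the endoplasmic reticulum (ER) and components of the unfolded protein response. They are 34 named genes, each taken through the gene symbol of its probe in the platform annotation and represented by its brightest probe with a value on all 3 arrays. All 34 met this rule, out of 15697 genes measured on all 3 arrays, and 2 of them (MANF and ERO1B) are annotated under older symbols. RNA came from HepG2 cells, an established human hepatocellular carcinoma line, grown in medium with serum and harvested 72 h after lipid transfection with 10 nM siRNA. The groups were villin siRNA (against VIL1, an actin-bundling protein of microvilli), PTK7 siRNA (against a catalytically inactive receptor kinase linked to Wnt signalling) and a negative control siRNA, with 1 one-colour array each. The labels list 2 villin oligonucleotides without saying which was used for the array, and a single PTK7 oligonucleotide, so an off-target effect of an oligonucleotide and the effect of its target cannot be told apart. With 1 array per group no difference has a replicate check and no p-value can be given.

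The response to misfolded protein in the ER is sensed by the transmembrane proteins IRE1 (gene ERN1), PERK (EIF2AK3) and ATF6, which are held in check by the chaperone BiP (HSPA5). Activated IRE1 splices the XBP1 mRNA, cleaved ATF6 acts as a transcription factor, and PERK phosphorylates eIF2α and so favours translation of ATF4. Spliced XBP1 and ATF6 raise transcription of chaperones, disulfide enzymes and the machinery of ER-associated degradation, in part through the ER stress response element (ERSE) in the promoters of these genes. Hepatocytes secrete large amounts of plasma protein and depend on this machinery.

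Because that element is shared by many of these promoters, the window from 250 bases before to 50 bases after each annotated start site was searched in a table of RefSeq promoter sequences (GRCh38.p14). It was matched for 31 of the 34 genes, all but DERL1, DERL3 and PDIA3. The ERSE was searched as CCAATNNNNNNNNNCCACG and its variant ERSE-II as ATTGGNCCACG, both on either strand. The 250 upstream bases of 6 genes, chosen after values were seen, are printed 5′ to 3′ on the gene's strand. The outer 5 bases of each side of an ERSE or ERSE-II match are in capitals. These 6 genes do not stand for the whole list. SEC61B, also lower with villin siRNA, has neither match, while CANX and CALR have an ERSE match but lay above 0 with villin siRNA. XBP1 has a further annotated start without a match. XBP1 and HSPA5 show the element in forward orientation close to the start, HSP90B1 shows a match on either strand, CRELD2 shows a reverse match, SDF2L1 shows an ERSE-II, and RCN1 shows none.
XBP1 (chr22:28800570-28800819, minus strand): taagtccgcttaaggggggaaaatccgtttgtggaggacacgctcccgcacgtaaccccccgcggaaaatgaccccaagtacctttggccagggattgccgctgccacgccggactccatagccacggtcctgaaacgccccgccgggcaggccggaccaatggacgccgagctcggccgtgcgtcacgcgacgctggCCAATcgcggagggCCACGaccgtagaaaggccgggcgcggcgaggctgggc
HSPA5 (chr9:125241344-125241593, minus strand): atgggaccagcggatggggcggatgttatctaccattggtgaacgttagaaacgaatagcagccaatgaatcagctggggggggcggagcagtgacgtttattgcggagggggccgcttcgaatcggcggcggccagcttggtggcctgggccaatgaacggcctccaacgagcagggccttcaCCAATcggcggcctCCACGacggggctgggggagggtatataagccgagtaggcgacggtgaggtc
HSP90B1 (chr12:103930160-103930409, plus strand): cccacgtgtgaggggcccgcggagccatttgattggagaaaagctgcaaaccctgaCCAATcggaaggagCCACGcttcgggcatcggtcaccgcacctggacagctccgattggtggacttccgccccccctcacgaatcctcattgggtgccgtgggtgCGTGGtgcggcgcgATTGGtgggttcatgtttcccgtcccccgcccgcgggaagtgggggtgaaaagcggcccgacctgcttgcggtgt
CRELD2 (chr22:49918384-49918633, plus strand): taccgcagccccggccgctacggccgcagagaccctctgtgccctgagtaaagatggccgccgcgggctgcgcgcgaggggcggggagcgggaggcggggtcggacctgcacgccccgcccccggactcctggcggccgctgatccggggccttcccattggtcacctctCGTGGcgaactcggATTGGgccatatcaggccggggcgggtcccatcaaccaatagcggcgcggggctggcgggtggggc
SDF2L1 (chr22:21642052-21642301, plus strand): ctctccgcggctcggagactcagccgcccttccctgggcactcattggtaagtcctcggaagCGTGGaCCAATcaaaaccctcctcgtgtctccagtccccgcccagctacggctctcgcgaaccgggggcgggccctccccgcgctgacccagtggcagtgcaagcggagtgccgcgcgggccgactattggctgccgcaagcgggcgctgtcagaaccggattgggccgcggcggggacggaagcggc
RCN1 (chr11:32090824-32091073, plus strand): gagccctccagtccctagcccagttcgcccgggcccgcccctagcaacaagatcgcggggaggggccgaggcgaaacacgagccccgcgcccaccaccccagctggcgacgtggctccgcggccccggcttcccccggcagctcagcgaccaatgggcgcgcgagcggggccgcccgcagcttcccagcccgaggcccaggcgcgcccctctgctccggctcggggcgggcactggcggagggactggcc
The first base of the match lay at position -52 in XBP1, -66 in HSPA5, -194 and -89 in HSP90B1, -80 in CRELD2 and -188 in SDF2L1, counted from the start site. An ERSE match was present for 9 of the 31 genes (29%: HSPA5, HSP90B1, XBP1, PDIA6, CALR, CANX, CRELD2, ERO1B and SERP1), against 25 of all 27305 genes with a window (0.0916%). The element was first described from promoters of such genes, HSPA5, HSP90B1 and CALR among them, so this share is not independent of the list. An ERSE-II match was present for 3 (9.68%: HERPUD1, HYOU1 and SDF2L1), against 19 of all genes (0.0696%). The core TGACGTGG of the XBP1 and ATF6 binding site was found in 2 windows (DNAJC10 and HYOU1, where it overlaps an ERSE-II), a share of 6.45% against 0.927% of all genes. The core TTGCATCA of the amino acid response element was found only in HERPUD1, a share of 3.23% against 1.08%.

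The arrays were checked against their labels first. VIL1 had deposited intensities of 129 on the villin siRNA array, 1084 on the PTK7 siRNA array and 924 on the control array, on a scale where the median of each array is 25. PTK7 had 25, 12 and 14 on the same arrays. Its normalised log2 difference against control was -0.05 on the array labelled PTK7 siRNA (-0.18 after the position scaling described below), with its spot in block 24 of the slide. At such low intensities the offset added during background correction shrinks differences, so the knockdown cannot be read from this probe. The array labelled PTK7 siRNA is called the PTK7-labelled array throughout. Of 9 hepatocyte markers, 8 were measured, with deposited intensities of 170 to 11192, 243 to 14632 and 234 to 17375 on the villin siRNA, PTK7-labelled and control arrays. The 3 measured of 5 leukocyte markers summed to 382, 307 and 311 units on these arrays, with CD68 at 346, 272 and 281, and PTPRC was not above background on either knockdown array and had 2 units on the control array. The 3 measured of 4 fibroblast markers summed to 67, 65 and 28 units, with PDGFRB at 60, 60 and 22 and COL1A2 not above background on any array. PDGFRB lay at 0.67 with villin siRNA and 0.71 on the PTK7-labelled array against control (0.46 and 0.38 after the position scaling described next), with its spot in block 24 of the slide. The 2 measured of 3 endothelial markers summed to 16, 16 and 14 units. Differences from the control array also followed spot position on the slide. Per block of spots, the median log2 difference against control lay between -0.11 (block 4) and 0.12 (block 24) for villin siRNA and between -0.12 (block 1) and 0.15 (block 24) for the PTK7 label, and all of blocks 1 to 6 lay below -0.08 in both. Between the knockdown arrays the block medians spanned only -0.03 to 0.04. Values are therefore given both after quantile normalisation and after each spot was first scaled to its surroundings on the slide (position scaling). In bulk RNA, fewer cells expressing a gene and less RNA per cell cannot be told apart.

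**Figure D1:**
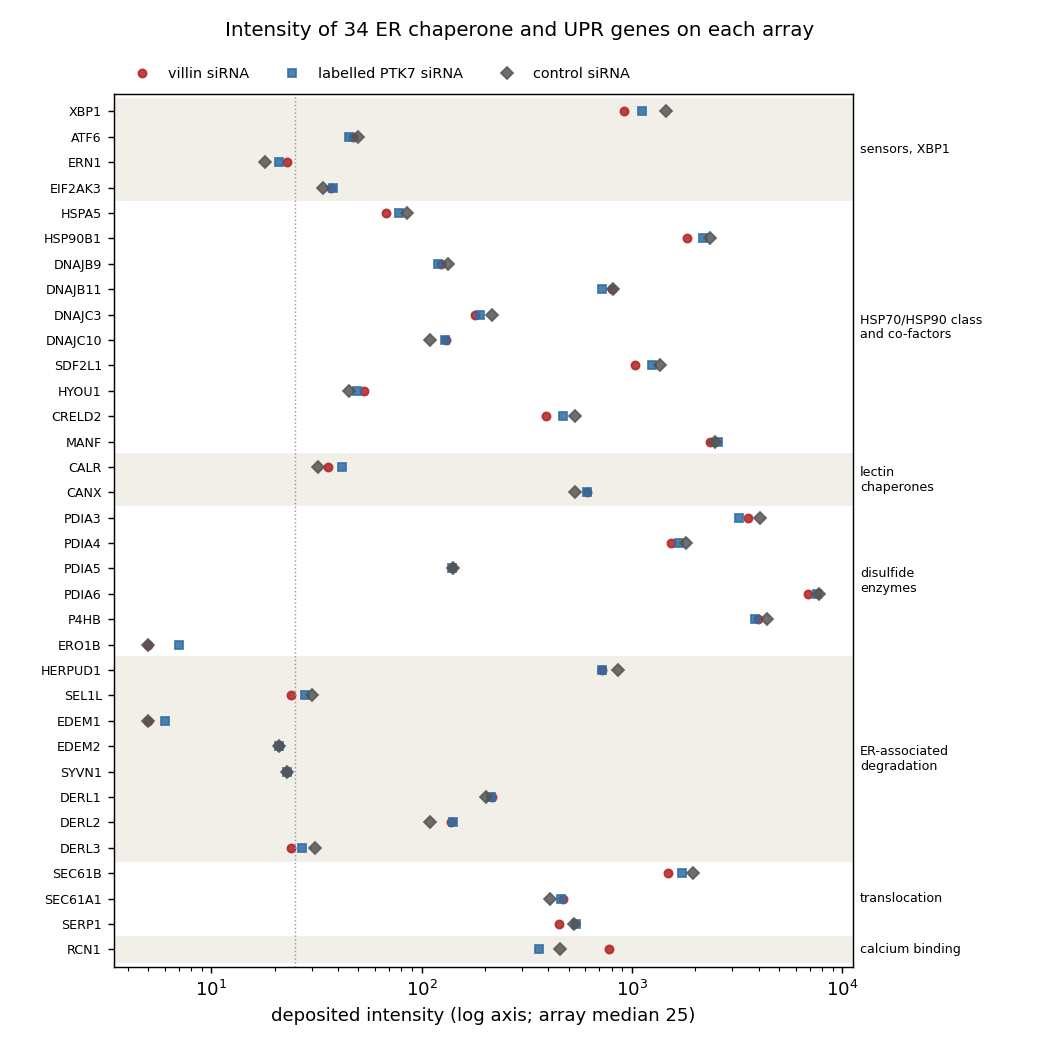
Deposited intensity (log axis) of each of the 34 genes on the villin siRNA array (red circles), the PTK7-labelled array (blue squares) and the control siRNA array (grey diamonds), ordered by role. The dotted line is the median of each array, 25, and most genes have nearly the same value on the 3 arrays. XBP1 (912, 1119 and 1454) and RCN1 (775, 362 and 454) have the widest ratios between arrays.

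On the villin siRNA array the chaperone genes as a group lay close to the control array. RCN1, a calcium-binding protein of the ER lumen, was higher and XBP1, the transcription factor of the IRE1 branch, was lower, while the remaining 32 genes differed by less than 1.5-fold. Thus 1 of 34 genes was at least 1.5-fold higher, where 1.62% of all measured genes were, and 1 of 34 was at least 1.5-fold lower, where 0.529% of all genes were. The median log2 difference of the 34 genes was -0.03, beside -0.01 for all genes, and 22 of 34 lay below 0 (64.7%), where 54.5% of all genes did. With background taken from the scanner's own column 16 of 34 lay below 0. With median scaling 17 of 34 did, and the median was -0.0044. The brighter genes as a whole also differed between median scaling and quantile normalisation, and which of these moved them was not tested. The median of all genes above the median level was 0.10 with median scaling, against -0.02 after quantile normalisation. The 26 members above that level had medians of 0.03 with median scaling and -0.08 after quantile normalisation, below those of all such genes under both. After position scaling RCN1 was still 1.5-fold higher (0.924% of all genes), no member was 1.5-fold lower (0.287% of all genes), and 21 of 34 lay below 0 (54% of all genes). On the PTK7-labelled array the median was -0.02, beside -0.01 for all genes. No member there was 1.5-fold higher (0.822% of all genes) or 1.5-fold lower (0.217% of all genes), and 18 of 34 lay below 0, against 52.9% of all genes. These comparisons share the control array.

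The offset added during background correction shrinks differences, so a smaller threshold of 1.2-fold, chosen after the values were seen, was also counted. Against control, 6 of 34 genes were at least 1.2-fold lower on the villin siRNA array (17.6%, where 7.11% of all genes were): XBP1, CRELD2, SEC61B, SDF2L1, HSPA5 and HSP90B1. RCN1 alone was at least 1.2-fold higher (2.94%, where 7.54% of all genes were). All 6 lower genes are among the 26 members above the median level of all genes, and among all genes above that level 13.5% were 1.2-fold lower. After position scaling 5 members were 1.2-fold lower (14.7%, against 4.38% of all genes), of which XBP1, CRELD2, SDF2L1 and HSPA5 were shared and MANF was added, while CANX and DNAJB11 joined RCN1 as 1.2-fold higher (3 of 34, against 4.68% of all genes). Among all genes above the median level 8.35% were then 1.2-fold lower. On the PTK7-labelled array, 2 genes (XBP1 and RCN1) were 1.2-fold lower and 1 (DERL2) was higher, where 5.95% and 6.8% of all genes were. After position scaling RCN1 alone was 1.2-fold lower and none was higher, where 315 and 355 of all 15697 genes were. XBP1 then lay at -0.07 and DERL2 at 0.01.

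**Figure D2:**
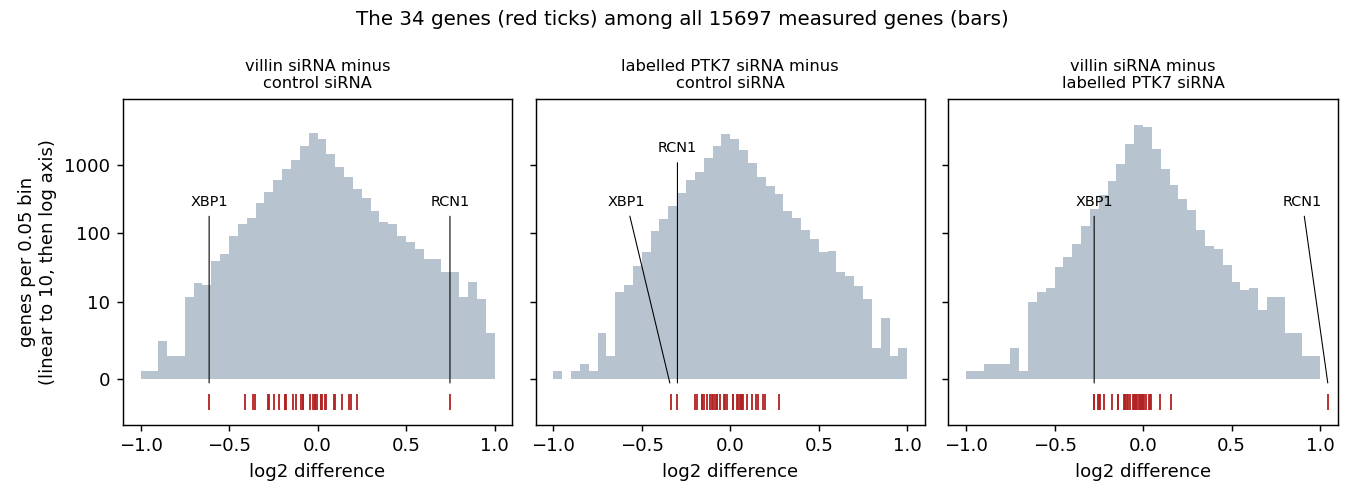
Number of all measured genes per 0.05 of log2 difference (bars, between -1 and 1; vertical axis linear to 10 and logarithmic above) with the 34 genes as red ticks beneath. In the villin siRNA comparison XBP1 at -0.61 and RCN1 at 0.75 stand at the 2 ends of the ticks, and RCN1 at 1.05 stands alone in the right panel.

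Among the sensors and transcription factors, only XBP1 differed by 1.2-fold or more in any of the comparisons. Its intensity was 912 on the villin siRNA array, 1119 on the PTK7-labelled array and 1454 on the control array. XBP1 was therefore lowest with villin siRNA and highest with control siRNA. The log2 difference from control was -0.61 (1.53-fold lower) with villin siRNA and -0.34 on the PTK7-labelled array, ranks 62 and 447 from the low end among 15697 genes. After position scaling these differences were -0.33 and -0.07. Whether the probe separates spliced from unspliced XBP1 mRNA is not given in the sources used here, so the value is taken as XBP1 mRNA of either form. ERN1, which encodes IRE1 itself, had 23, 21 and 18 units on the villin siRNA, PTK7-labelled and control arrays. EIF2AK3, encoding PERK, had 37, 38 and 34 units on them, and ATF6 had 47, 45 and 50. The log2 differences of these 3 genes from control lay between -0.09 and 0.10, less than 1.2-fold.

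The HSP70 and HSP90 class of chaperones and their co-factors, as the roles were assigned, held 4 of the 6 genes that were 1.2-fold lower with villin siRNA. These were 4 of the 10 genes in the class, where 7.11% of all genes were 1.2-fold lower, and 13.5% of those above the median level. CRELD2 is among the 4 and was counted in this class, not with the disulfide enzymes. Of the 10 genes in the class, 6 lay below 0 on the villin siRNA array (54.5% of all genes did), with a median of -0.18. After position scaling 8 lay below 0 (54% of all genes), with a median of -0.16. On the PTK7-labelled array the medians were -0.09 and -0.06. CRELD2, a disulfide isomerase-like protein induced by ER stress, had 392 units with villin siRNA, 470 on the PTK7-labelled array and 536 with control siRNA, and its log2 difference from control was -0.41 with villin siRNA (-0.26 after position scaling). SDF2L1, a co-factor in the BiP cycle, had 1029, 1247 and 1364 units on the same arrays, with a difference of -0.35 (-0.27 after scaling). In both genes the villin siRNA array was lowest and the control array highest.

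HSPA5, encoding BiP, the HSP70 of the ER, had 68 units on the villin siRNA array, 78 on the PTK7-labelled array and 85 on the control array. Its log2 difference from control was -0.28 with villin siRNA and -0.10 on the PTK7-labelled array. It was lower with villin siRNA under all 9 alternative settings, and position scaling left it at -0.27. Among these settings, averaging over probes and a stricter filter for dim probes could not change HSPA5, which has 1 probe. All settings use the same arrays. HSP90B1, encoding the ER HSP90 GRP94, had 1827, 2167 and 2343 units on these arrays, with a difference of -0.28 for villin siRNA that became -0.09 after position scaling. DNAJC3, a co-chaperone that also restrains PERK, had 179, 190 and 215 units on the villin siRNA, PTK7-labelled and control arrays, and lay at -0.25 with villin siRNA. DNAJB9, a BiP co-chaperone that represses IRE1, lay at -0.12 on both knockdown arrays, with 124 units for villin siRNA, 120 for the PTK7 label and 133 for control.

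The remaining co-factors lay above 0 for villin siRNA against control before position scaling. DNAJB11, a BiP co-chaperone, had 801, 722 and 813 units on the villin siRNA, PTK7-labelled and control arrays, and its difference was 0.03 for villin siRNA (0.30 after position scaling) and -0.13 on the PTK7-labelled array (0.15 after scaling). DNAJC10, a J protein that reduces disulfides, had 130, 129 and 110 units and was higher by 0.14 and 0.16 on the knockdown arrays. HYOU1, the HSP110 of the ER and nucleotide exchange factor of BiP, had 53, 49 and 45 units and lay at 0.10 with villin siRNA (-0.01 after scaling). MANF, a secreted stress protein that binds BiP, had 2357, 2572 and 2476 units. Its difference for villin siRNA turned with the setting, being 0.02 after quantile normalisation and -0.28 after position scaling, and the spot lies in block 24, among the blocks whose values were highest against control.

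The lectin chaperones, which bind glycoproteins with trimmed glycans, lay on the other side of 0. CANX, the membrane-bound calnexin, had 612 units on both knockdown arrays and 537 on the control array. Its log2 difference was 0.19 with villin siRNA and 0.20 on the PTK7-labelled array (0.28 and 0.21 after position scaling). CALR, the soluble calreticulin, had 36, 42 and 32 units on the villin siRNA, PTK7-labelled and control arrays, and lay at 0.04 and 0.19.

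The disulfide enzymes differed little. All 6 lay below 0 on the villin siRNA array (54.5% of all genes did), if only just for ERO1B, with a median of -0.06 and the lowest value at -0.18 (PDIA4). None of them differed by 1.2-fold. CRELD2, at -0.41 with villin siRNA, was counted in the HSP70 and HSP90 class and not here. After position scaling 5 of the 6 disulfide enzymes lay below 0 (54% of all genes), with a median of -0.13. PDIA4, an isomerase with several thioredoxin domains, had 1538 units with villin siRNA, 1676 with the PTK7 label and 1807 with control siRNA. PDIA3, the isomerase that works with the lectin chaperones, had 3544, 3240 and 4071 units on these arrays and was lowest on the PTK7-labelled array, at -0.19. P4HB, the main protein disulfide isomerase, had 3964, 3847 and 4384 units, and its difference for villin siRNA was -0.01, or -0.23 after position scaling. PDIA5 had 140, 140 and 141 units. ERO1B, the oxidase that reoxidises these isomerases, was near background with 5, 7 and 5 units, where rounding to whole units in the deposited table is coarse.

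PDIA6, a further disulfide isomerase, had a pair of probes that disagreed. The brighter probe, used here, had 6894 units on the villin siRNA array, 7580 on the PTK7-labelled array and 7757 on the control array, a log2 difference of -0.08 for villin siRNA. The dimmer probe had 386, 419 and 271 units, a difference of 0.45. The probes thus give opposite directions for villin siRNA, although both lie in block 12 of the slide. SEL1L, the other member with a pair of probes, lay at -0.14 and -0.02 for villin siRNA.

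Genes of ER-associated degradation, which retrotranslocate and ubiquitinate misfolded proteins, lay near the level of all genes. Their median was -0.02 with villin siRNA, with 6 of 8 below 0 (54.5% of all genes), and 0.02 on the PTK7-labelled array. None of the 8 differed by 1.5-fold. HERPUD1, a membrane scaffold of the complex and a known stress target, had 717, 716 and 854 units on the villin siRNA, PTK7-labelled and control arrays, and its differences of -0.18 and -0.20 became -0.08 and -0.02 after position scaling. DERL2, a candidate channel component, had 138, 141 and 109 units and lay at 0.23 and 0.28, but at 0.00 and 0.01 after scaling. DERL1 had 215, 213 and 203 units, and DERL3, its stress-induced relative, had 24, 27 and 31. The ligase gene SYVN1 (23 units on each array) and the mannosidase-like genes EDEM2 (21 on each array) and EDEM1 (5, 6 and 5) were level, and SEL1L, the partner of SYVN1, had 24, 28 and 30 units.

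Components of protein translocation went in both directions. SEC61B, a small subunit of the translocon, had 1481 units on the villin siRNA array, 1724 on the PTK7-labelled array and 1957 on the control array, with log2 differences from control of -0.36 and -0.15. After position scaling they were -0.09 and 0.08. SEC61A1, the channel subunit itself, had 472, 457 and 409 units and lay at 0.18 and 0.15. SERP1, which stabilises membrane proteins at the translocon during stress, had 451, 544 and 532 units and lay at -0.22 with villin siRNA (-0.05 after scaling) and at 0.04 on the PTK7-labelled array.

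RCN1, reticulocalbin, showed the widest difference of all 34 genes. Its intensity was 775 on the villin siRNA array, 362 on the PTK7-labelled array and 454 on the control array. The villin siRNA array was thus highest and the PTK7-labelled array lowest. The log2 difference from control was 0.75 (1.68-fold higher, rank 125 from the high end) with villin siRNA and -0.30 on the PTK7-labelled array, and 0.63 and -0.27 after position scaling. Between the villin siRNA array and the PTK7-labelled array it was 1.05 (2.07-fold, rank 7 from the high end), and 0.90 after scaling. RCN1 is represented by a single probe.

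**Figure D3:**
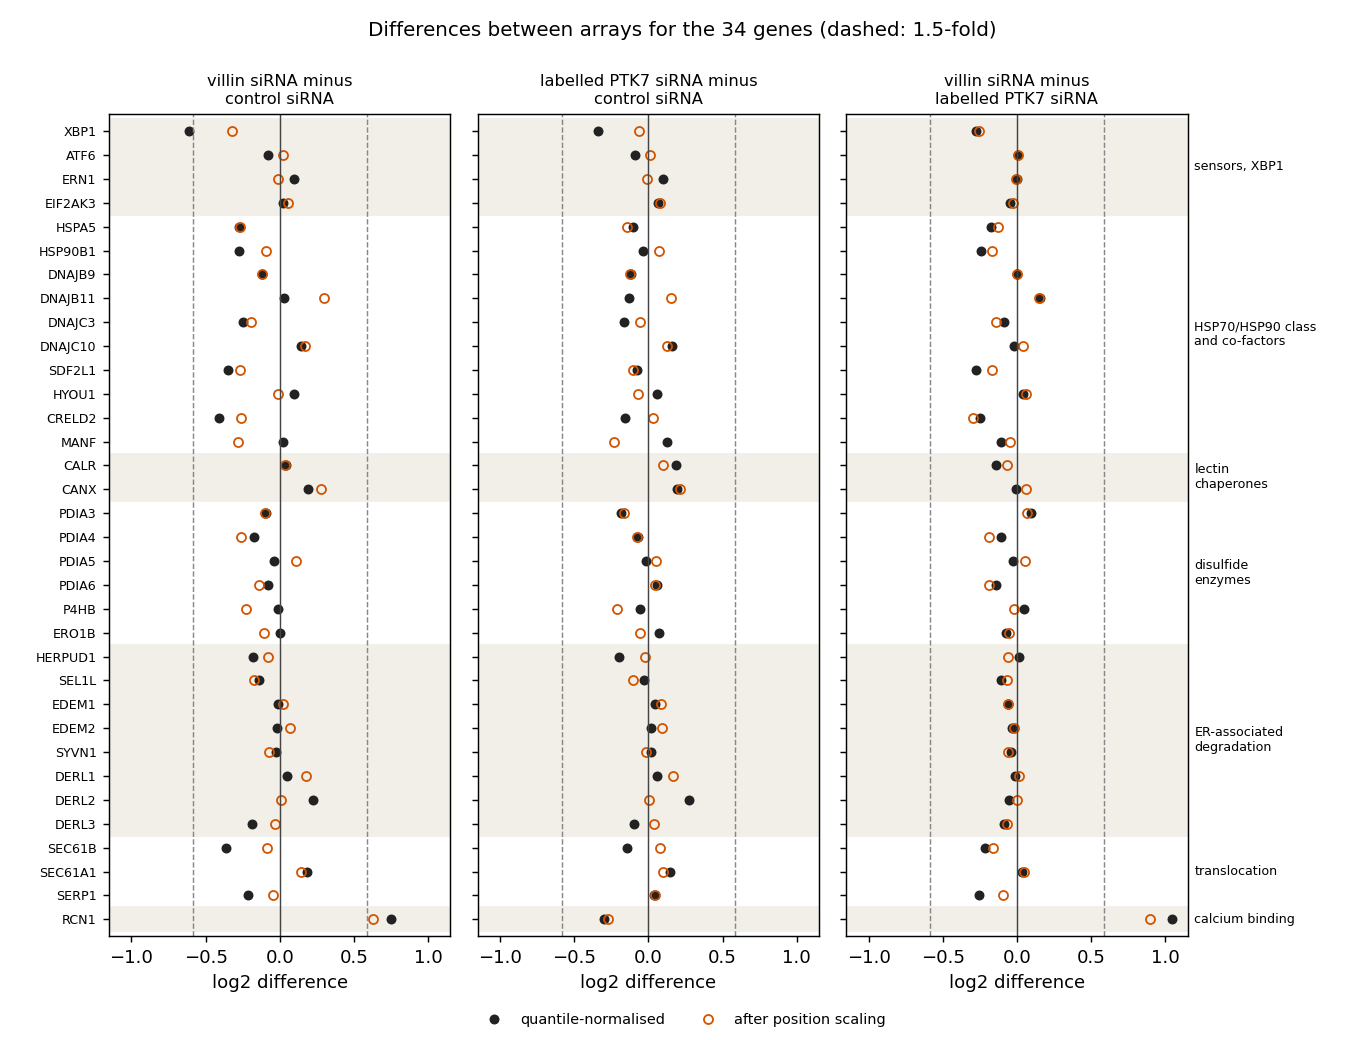
Log2 difference of each gene between arrays after quantile normalisation (filled) and after position scaling (open), with roles at the right and 1.5-fold marked by dashed lines. RCN1 lies beyond 1.5-fold in the left and right panels under both settings, XBP1 lies beyond it only in the left panel and only before position scaling, and no gene does in the middle panel.

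When the villin siRNA array was set directly against the PTK7-labelled array, an arrangement in which the effect of slide position was smallest, 26 of the 34 genes lay below 0 (76.5%, against 52.3% of all genes), and 23 did after position scaling (51.3% of all genes). The median was -0.05, beside -0.0042 for all genes. The differences were small. RCN1 alone was 1.5-fold higher (1 of 34, against 0.491% of all genes) and 1.2-fold higher (3.44% of all genes), none was 1.5-fold lower (0.172% of all genes), and the 2 genes at least 1.2-fold lower (3.06% of all genes) were SDF2L1 and XBP1, each at -0.28. After position scaling neither was 1.2-fold lower (-0.17 and -0.26), and CRELD2 was, at -0.30. Before that scaling they were followed by SERP1 (-0.26), CRELD2 (-0.25), HSP90B1 (-0.24), SEC61B (-0.22) and HSPA5 (-0.18). In the deposited table, and with background taken from the scanner's own column, 18 of 34 lay below 0, and with cyclic loess 22 did. With median scaling 16 of 34 lay below 0, with a median of 0.0003. All genes above the median level then had a median of 0.08, against -0.01 after quantile normalisation, and the 26 members above it had medians of 0.05 and -0.04.

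The 9 genes with an ERSE match lay lower on the villin siRNA array than the 22 without one. Their median log2 difference from control was -0.22, beside -0.02 for the genes without a match. Below 0 lay 7 of 9, beside 13 of 22 without a match and 54.5% of all genes. After position scaling the medians were -0.11 and -0.01. Against the PTK7-labelled array all 9 lay below 0, with a median of -0.18 (8 of 9 and -0.13 after scaling). Those without a match had 15 of 22 below 0 and a median of -0.03. Of all genes, 52.3% lay below 0 there (51.3% after scaling). On the PTK7-labelled array the medians against control were 0.04 with and -0.02 without a match. CANX and CALR hold the element and lay above 0 on the villin siRNA array, and SDF2L1 and SEC61B lack it and lay among the lowest. The 22 genes without a match include the 3 with an ERSE-II match. They also include genes with dim probes, such as EDEM1, EDEM2, SYVN1 and ERN1, whose differences the offset shrinks. CALR and ERO1B have a match and dim probes, and the groups were not matched for brightness. Outside the 34 genes, 16 genes have an ERSE match and 10 of them were measured, with a median of -0.01 for villin siRNA against control. The lowest of these, TMEM120A, lay at -0.34 and the highest, EIF2A, at 0.07. For villin siRNA against the PTK7-labelled array 8 of these 10 lay below 0, with a median of -0.02, and 6 did after position scaling. A match describes letters in the window and is no evidence of binding in these cells.

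**Figure D4:**
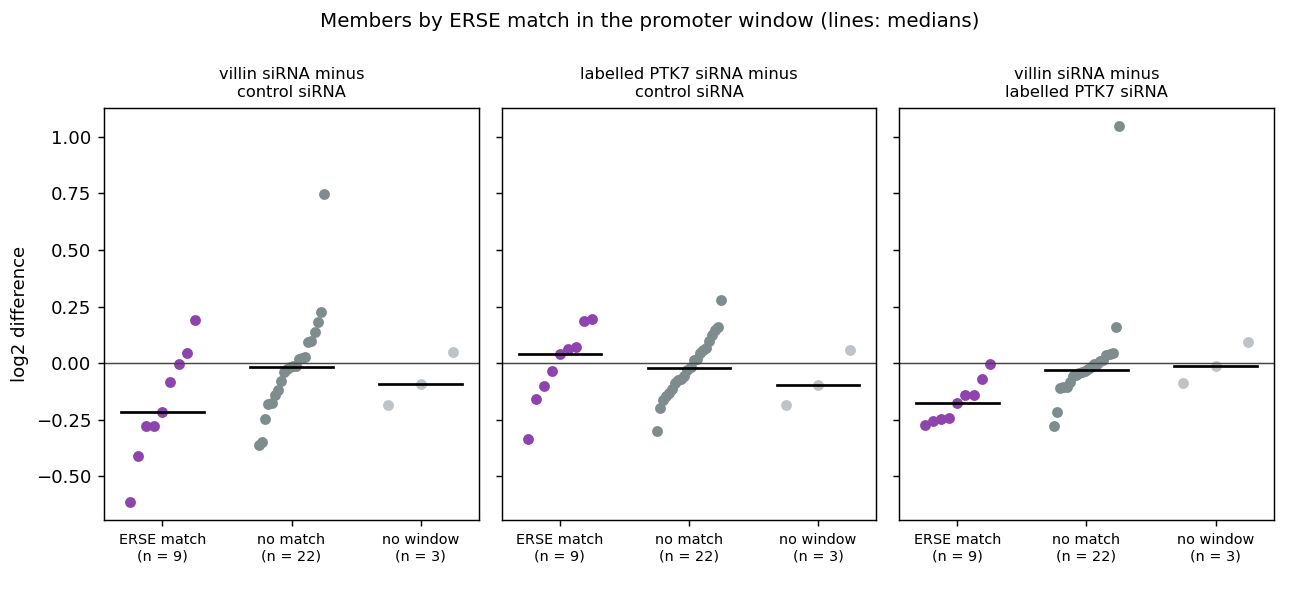
Log2 difference of each member between arrays, split by whether its promoter window holds an ERSE match (purple, n = 9), holds none (grey, n = 22) or is missing from the sequence table (light grey, n = 3), with medians as lines. For villin siRNA minus control the medians are -0.22 with and -0.02 without a match. In the right panel all 9 genes with a match lie below 0, where 52.3% of all genes do.

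Other genes of the pathway, in lists chosen with earlier results of these data known, showed few differences of 1.5-fold. Of all genes, 1.62% were 1.5-fold higher and 0.529% lower with villin siRNA, and 0.822% and 0.217% on the PTK7-labelled array. In the PERK and ATF4 arm 8 of 12 genes lay below 0 on the villin siRNA array (54.5% of all genes did), with a median of -0.11 (-0.21 after position scaling). DDIT3, encoding the transcription factor CHOP, had 169, 199 and 261 units on the villin siRNA, PTK7-labelled and control arrays, and ASNS, asparagine synthetase, had 807, 879 and 1227. Their log2 differences for villin siRNA were -0.55 and -0.53 (-0.35 and -0.44 after position scaling, where CEBPB was lowest at -0.51). ATF4 itself passed 1.5-fold on the PTK7-labelled array, at 0.62, and lay at 0.41 with villin siRNA, but at -0.21 and -0.43 after position scaling, its spot being in block 24. Among 33 further folding enzymes the median was -0.02 with villin siRNA, and CALU, a relative of RCN1, was the only one past 1.5-fold, at 0.65 (0.21 after scaling). HSPA13 was the lowest of them, at -0.32, but lay at -0.07 after position scaling, where TMX1 was lowest at -0.45.

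Of 28 measured genes of the translocon, signal peptidase and oligosaccharyltransferase, SEC61G alone passed 1.5-fold, at -0.63 with villin siRNA (-0.34 after scaling), and DAD1, an oligosaccharyltransferase subunit, was highest, at 0.44 (0.38 after scaling, where SRP72 was lowest at -0.55). SEC61G had 3016 units on the villin siRNA array, 3462 on the PTK7-labelled array and 4962 on the control array. The median of this list was -0.01 with villin siRNA. Further ER-associated degradation genes had a median of 0.08 over 16 genes, between ERLEC1 at -0.25 and NGLY1 at 0.44, and none passed 1.5-fold. After position scaling ERLEC1 lay at 0.03 and NGLY1 at 0.12, and the ends of the list were RNF5 at -0.16 and VCP at 0.38. ER to Golgi transport genes had a median of 0.11 over 24 genes, between SAR1A, a coat GTPase, at -0.58 and COPE, a coatomer subunit, at 0.49, both on the scale before position scaling (-0.23 and 0.27 after it). After position scaling 1 of them, MCFD2, was 1.5-fold higher, at 0.72 (0.924% of all genes were with villin siRNA). Other stress transducers had a median of -0.03 over 16 genes, between YY1 at -0.39 and MBTPS1, the protease that cleaves ATF6, at 0.37. After position scaling YY1 lay at -0.02 and MBTPS1 at 0.25, and the ends of the list were NFYB at -0.18 and RTCB at 0.40.

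A list of heat shock genes outside the ER, cytosolic apart from the mitochondrial chaperonin genes HSPD1 and HSPE1, gave 3 of 15 past 1.5-fold on both knockdown arrays, all higher. Of all genes, 1.62% were 1.5-fold higher with villin siRNA and 0.822% on the PTK7-labelled array. HSPA1A lay at 0.79 and 0.96, HSPD1 at 0.64 and 0.66 and HSPH1 at 0.72 and 0.61 for villin siRNA and the PTK7 label, and all of their spots lie in block 23. After position scaling HSPA1A lay at 0.32 and 0.37, HSPD1 at -0.15 and -0.10 and HSPH1 at -0.02 and -0.19. The ends of the list for villin siRNA were then HSPA8 at -0.25 and HSPA4 at 0.42. On each knockdown array 3 of 15 genes were then at least 1.2-fold higher and none was 1.2-fold lower. Of all genes, 4.68% were higher and 4.38% lower with villin siRNA, and 355 and 315 of 15697 on the PTK7-labelled array. HSPA1B, a near-identical copy of HSPA1A whose transcripts the probes may not separate, lay at -0.33 and -0.49 before scaling, in block 1. The values of HSPA1A and HSPA1B are therefore uncertain.

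Slide position differed among the members, and its part in their values was not tested beyond the scaling above. Of the 34 members, 9 have their spots in blocks 1 to 6, where the median of all genes was low against control, and these include XBP1, CRELD2 and SEC61B. Their median for villin siRNA was -0.08, beside -0.12 for the 17 members in blocks 7 to 18 and 0.01 for the 8 in blocks 19 to 24. After position scaling the 3 medians were 0.02, -0.08 and -0.09. HSPA5, SDF2L1 and HSP90B1 lie in blocks 9, 12 and 7, outside blocks 1 to 6. The block medians for villin siRNA against control were -0.02, -0.01 and -0.06 there, block 7 being the lowest after blocks 1 to 6. After position scaling HSPA5 lay at -0.27, SDF2L1 at -0.27 and HSP90B1 at -0.09. The hepatocyte markers, which encode secreted plasma proteins, differed in both directions on the villin siRNA array. The summed intensity of the 8 hepatocyte markers was 36557 with villin siRNA, 47628 with the PTK7 label and 50996 with control. Of the 8, 5 lay below 0 for villin siRNA (54.5% of all genes) and 2 for the PTK7 label (52.9% of all genes). TF and ALB lay at -0.43 and -0.56, FGB at -0.41, AFP at -0.37 and SERPINA1 at -0.04. APOB lay at 0.00, APOA1 at 0.04 and TTR at 0.24. Their part in the result was not tested.

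**Figure D5:**
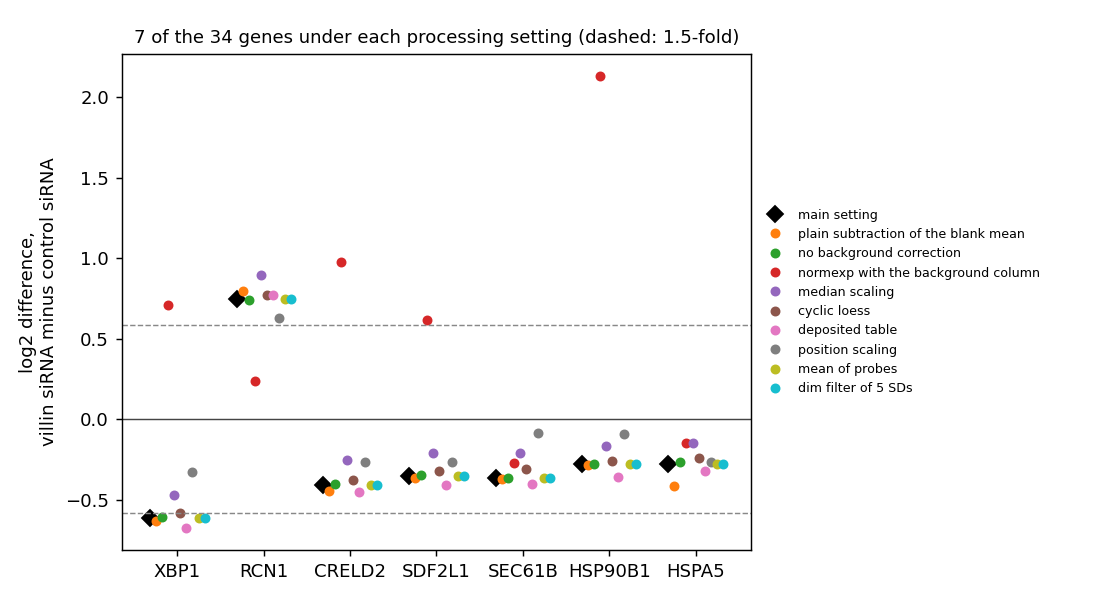
Log2 difference of 7 members between the villin siRNA array and the control array under the main setting (black diamonds) and 9 alternatives (coloured circles). RCN1 is above 0 and SEC61B and HSPA5 are below 0 in all settings, while XBP1, CRELD2, SDF2L1 and HSP90B1 are above 0 only with the scanner's background column. The mean of probes and the dim filter repeat the main value, since each of these genes has a single probe.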

How the data were processed

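Labelled RNA (amino allyl aRNA with Cy5) was hybridised to 1 array per group, per the labels' protocols. Per the file headers, the scanner files hold a median intensity for each of 27456 spots, merged from 3 gains and not normalised. The authors' deposited table holds whole-number intensities. From the values, these equal the spot median minus the mean of the blank spots, divided by 1.60 on the villin siRNA array, 1.34 on the PTK7-labelled array and 1.26 on the control array, to within 0.535 units. The scanner software, normalisation software and genome build are not given in the sources used here. No per-sample column was left unused (0).

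The main values were corrected with normexp against the mean of 2680 blank spots (5% left out at each end) with an offset of 50, then quantile-normalised across the 3 arrays and put on the log2 scale with limma 3.58.1 in R 4.3.3. A probe counted as measured if it exceeded the blank mean by 2 SDs on all 3 arrays. Each array had 90.2% to 92.1% of 24460 probes above this level, the same probes as those with a deposited value. The platform annotation named 20236 probes, of which 2899 had symbols updated through RefSeq synonyms and 99 could not be matched. Position scaling divided each signal by the median deviation of the spots around it, in a window of 11 columns by 5 rows. A log2 difference is the first-named array minus the second. Brightness served to rank genes as above or below the median level and to sum markers, and no gene's level was set against another's.

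The number of arrays limits the precision, and no test was made. As a technical scale, 48 positive control spots had an SD of the log2 difference of 0.206 between the villin siRNA and control arrays, 0.249 between the PTK7-labelled and control arrays, and 0.109 between the villin siRNA and PTK7-labelled arrays. The fitting steps were tested on simulated data. The members, their roles and the other lists were chosen with earlier results of these data known. Named genes are all members, VIL1 and PTK7, and the genes of each further list past 1.5-fold or at its ends for villin siRNA before position scaling. Some genes at the ends on the PTK7-labelled array or after position scaling are named too, but not all of them. The cell markers, MCFD2, TMEM120A, EIF2A and the choice of printed sequences were added after values were seen. Tables and figures were made in Python 3.11.15 (pandas 2.3.3, with numpy 2.4.6; plots with matplotlib 3.10.9).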

Additional observations from a re-analysis of the deposited data

How the results depend on the processing

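Alternatives were plain subtraction, no background correction, the scanner's background column, median scaling, cyclic loess, the deposited table, position scaling, the mean of probes, a dim filter of 5 SDs and, for counts, a 2-fold threshold. No paired analysis was possible because each group has 1 array. Shares of all genes past 1.5-fold or 1.2-fold were taken only for the main and position-scaled values. Counts of members under the other settings therefore have no share of all genes beside them. For villin siRNA against control, the background column gave 5 members 1.5-fold higher and 3 lower, median scaling, cyclic loess and position scaling each gave 0 lower, and the 2-fold threshold gave 0 higher and 0 lower. The median of -0.0334 became -0.0757 with plain subtraction, 0.0192 with the background column and -0.0802 in the deposited table. For the PTK7-labelled array against control, the background column gave 7 higher and 3 lower, and the median of -0.0237 became -0.0664 in the deposited table. For villin siRNA against the PTK7-labelled array, the background column gave 2 higher and 4 lower, and the median of -0.0485 became -0.0981 with plain subtraction and 0.0003 with median scaling. With the background column XBP1 was reversed to 0.71 for villin siRNA against control, and RCN1 to -0.38 for villin siRNA against the PTK7-labelled array; the cause was not tested. At 1.2-fold, a threshold chosen after seeing the data, 6 members were lower with villin siRNA than with control. Median scaling gave 1, with the brighter genes as a whole higher than after quantile normalisation, and the other alternatives gave 4 to 9. Higher members numbered 1, with up to 7 (background column). For the PTK7-labelled array against control, 1 member was higher (0 to 11) and 2 were lower (1 to 5), and for villin siRNA against the PTK7-labelled array 1 was higher (1 to 4) and 2 were lower (0 to 10). Probes near background, such as those of ERO1B and EDEM1, limit what can be read of those genes.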
